A study of Mus musculus with 8 samples.

Results

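The genotype difference described here is the common change between 4 arrays of cells from lungs carrying the floxed Fgfr2b allele and 4 arrays of control cells, estimated once per gene over both sorted populations. All 8 arrays of the series entered, so the members are 8 of 8 samples, and each of the 24306 named genes was represented by its brightest spot. The cells were sorted by FACS from mouse lungs as type I (AECI) or type II (AECII) alveolar epithelium at E18.5, after tamoxifen had been given to the pregnant females at E14.5 and E15.5. The groups were AECI control, AECI experimental (Fgfr2bflox), AECII control and AECII experimental, with 2 arrays each, and the series title places the inhibition in Sftpc-expressing cells. Both genotypes received tamoxifen. Controls were embryos of other females, and litter and genotype therefore cannot be told apart. For the alleles beyond the flox, the strain, the embryos per sample and the sort gate, no source used here gives a description. Whether replicates were separate animals, and whether AECI and AECII of the same number shared lungs, is not stated. The sex-linked transcripts given below differed between the 2 controls of each population and between same-numbered AECI and AECII controls. The p-values cover the spread of these 8 arrays, which may be technical between the experimental arrays of a group.

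Fgfr2b is the epithelial splice form of fibroblast growth factor receptor 2. It binds ligands such as Fgf7 and Fgf10 from the mesenchyme and acts largely through the ERK cascade, whose target genes include Etv4, Etv5, the Sprouty inhibitors and Dusp6. In the developing lung it is known for its part in branching and in the distal epithelium. AECI, or AT1, cells form the thin gas exchange surface, and AECII, or AT2, cells make and store surfactant.

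The labelled populations were borne out by their markers. The mean log2 signal of 32 AT1 markers was 11.63 to 12.05 on the AECI arrays and 9.18 to 9.62 on the AECII arrays, and that of 32 AT2 markers was 11.89 to 12.1 and 13.16 to 13.26. Within a group the arrays had Pearson's r of 0.951 to 0.978 over genes, and every array had a median of 5.18 over all spots, since the authors had normalized between arrays. The lower quartile of spots was 3.07, and values below it carry no order. On 2 arrays, AECI control replicate 1 and AECII control replicate 2, Xist was low (3.96 and 6.53) and the Y-linked Eif2s3y high (10.63 and 10.40), the male pattern, while Xist read 13.32 to 13.90 on the other 6 arrays. Both were controls. Transcripts of other cells were present on all arrays. Ptprc of leukocytes read 6.58 to 7.60, Pecam1 of endothelium 5.15 to 6.86, and Col1a1 of mesenchyme 9.17 to 11.60.

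Across the whole transcriptome the genotypes differed by modest amounts in many genes. The largest difference in size was that of the globin Hbb-b1 of red blood cells (-4.28). The largest above 0 was that of Xist (3.94), which was not called. By limma with a constant variance prior, 0 of 24306 genes (0%) were higher and 0 (0%) lower at an adjusted p under 0.05, while 1561 genes (6.42%) were higher and 1065 (4.38%) lower at an unadjusted p under 0.05, with 1215 in all from chance alone. When the prior followed a mean-variance trend, which lets bright spots have a smaller spread than dim spots, 77 genes rose (0.317%) and 111 fell (0.457%), 0.773% in all. Differences lay above 0 in 13311 genes (54.8%). With each array centred on its median over genes the trend fit called 59 higher and 232 lower, since centring moved all differences by 0.103 downwards. Below, "rose" and "fell" refer to the trend fit, and its adjusted p is the p given unless the constant prior is named. In 1688 genes (6.94%) both experimental arrays lay above both control arrays in each population, and in 1159 (4.77%) they lay below. All 188 genes called with the trend had this order, but call and order rest on the same arrays, so the order is no separate support. When 1 array was left out, the trend count was 97 and 163 for replicates 1 and 2 of the AECI controls, 59 and 121 for those of AECI experimental cells, 52 and 49 for the AECII controls, and 42 and 52 for AECII experimental cells. With the male pattern as a covariate it was 37, and without both arrays of male pattern 30. In all of these fits 22 of the 188 genes passed. Unless stated, the calls named below did not pass in every such fit. Those of Cyp2f2, Postn, Pdia3, Sec61a1, Meg3, Gla and Per2 passed in 0 of the 8 fits without 1 array. Both fits on the male pattern gave the same difference for each called gene, so they are not separate checks. A call can be lost there with little change in the difference.

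**Figure D1:**
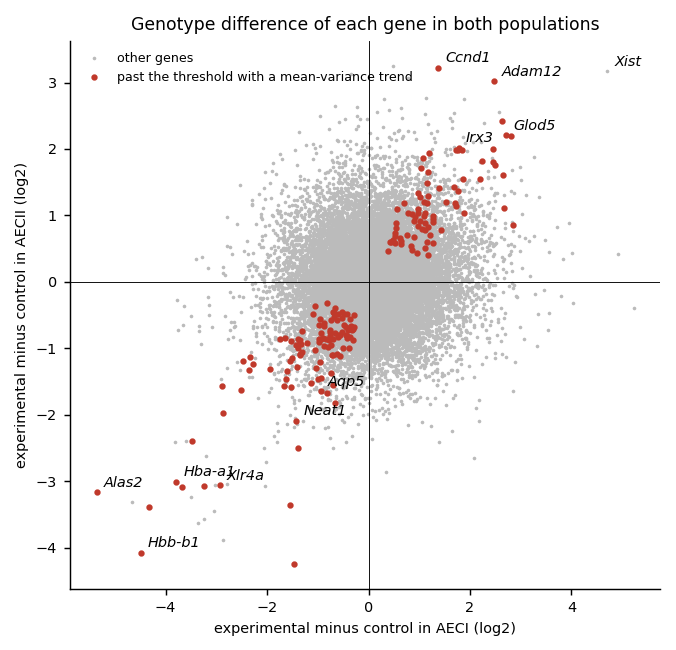
Each point is 1 of 24306 genes, plotted by its genotype difference in AECI (horizontal axis, log2) and in AECII (vertical axis, log2). Red points are the 188 genes past the threshold with a mean-variance trend, all of which have the same sign on both axes, and Xist stands apart at 4.70 and 3.17 without a call. The call and both axes rest on the same arrays.

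Adult globins and Alas2 fell in both populations. The red blood cell list holds globins, which carry oxygen, enzymes of heme synthesis and membrane proteins of the red cell. Of 20 measured members 6 fell and 1 rose, against 0.457% and 0.317% of all genes, and the median was -0.34 against 0.05 over all genes. The mean level of the list was 8.27 to 8.93 on control arrays and 6.84 to 7.74 on experimental arrays. In bulk samples such as these, fewer cells of a type and less RNA per cell cannot be told apart.

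Hbb-b1, an adult beta globin, read 11.95 and 12.16 in AECI control, 7.05 and 8.08 in AECI experimental, 12.79 and 12.40 in AECII control and 9.12 and 7.92 in AECII experimental cells. The genotypes were separated by more than 3 log2 units on every array pair within a population. It fell by 4.28 on the log2 scale (SE 0.26, adjusted p = 4.47e-06), the smallest p of all genes, and with the constant prior its adjusted p was 0.0702 (SE 0.34). Alas2, which catalyses the opening step of heme synthesis in red cells, read 9.11 and 9.03 in AECI control, 3.64 and 3.77 in AECI experimental, 9.23 and 9.17 in AECII control and 6.05 and 6.02 in AECII experimental cells. Its replicates lay close together in every group, and the experimental AECI level was under the array median, so that the size of the fall of 4.26 (SE 0.39, adjusted p = 0.000145) is approximate. Hba-a1, an adult alpha globin, also fell (-3.40, SE 0.28), as did Hba-a2 (-3.86, SE 0.33), Hbb-b2 (-3.38, SE 0.27) and Hbb-bt (-2.94, SE 0.31). All 20 spots of Hba-a1 and all 10 of Hba-a2 had the same direction. Globin copies are near-identical and their spots can share transcripts, so the 5 globin values are not independent. These 6 genes passed in every fit without 1 array and in both fits on the male pattern.

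Of the other 14 members of the list 8 lay below 0 and 1 was called. Tfrc, the transferrin receptor that takes up iron in many dividing cells, rose by 0.69 (SE 0.13, adjusted p = 0.0283), a call lost in both fits on the male pattern. The embryonic globin Hbb-bh1 differed by -0.15 from a level near the lower quartile of spots. Slc4a1, the red cell anion exchanger, read 6.40 and 5.54 in AECI control, 5.02 and 6.17 in AECI experimental, 8.31 and 8.70 in AECII control and 7.20 and 7.20 in AECII experimental cells, with a difference of -0.84. Its groups overlapped in AECI and not in AECII. The promoter of Alas2 is shown because it had the largest fall of the called genes outside the globins. In the 250 bases before its start, taken from RefSeq on GRCm38.p6, the letters AGATAA, a site read by GATA factors of red cells, were found on the reverse strand as TTATCT, in capitals.

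Alas2 (chrX:150547167-150547416, plus strand): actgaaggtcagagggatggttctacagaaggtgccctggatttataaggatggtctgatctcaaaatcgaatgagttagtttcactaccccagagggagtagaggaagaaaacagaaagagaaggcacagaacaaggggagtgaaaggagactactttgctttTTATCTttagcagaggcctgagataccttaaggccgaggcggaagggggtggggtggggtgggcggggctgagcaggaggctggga

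A match to AGATAA on either strand was present in 10.3% of 27025 promoters of that length and in 3 of 15 members of the erythroid list with a promoter (Alas2, Epor and Epb42). The promoters of the called globins Hba-a1, Hba-a2 and Hbb-bt held 0 matches. A match is a description of the letters and not a site.

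Fgfr2 itself showed no called difference. On its brighter spot it read 11.03 and 11.37 in AECI control, 11.07 and 11.38 in AECI experimental, 12.60 and 12.62 in AECII control and 12.24 and 12.33 in AECII experimental cells. The groups overlapped in AECI and not in AECII. The common difference was -0.15 (SE 0.19 with the constant prior, 95% interval -0.59 to 0.29, adjusted p = 0.818). On the dimmer spot it was 0.24 with the opposite sign (SE 0.19). Which exon carries the flox is not stated, and spots elsewhere in the gene check nothing. The 40 genes on both sides of Fgfr2 included 0 called genes by the trend fit.

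Genes downstream of the receptor were mostly near 0. Of 25 FGF and ERK targets 12 lay above 0 and the median was -0.08, against 54.8% and 0.05 over all genes. In both fits on the male pattern 13 lay above 0, the median was 0.007 and 0 were called. Etv5, a transcription factor induced by FGF signalling, differed by -0.08 (95% interval with the constant prior -0.54 to 0.38), Spry2, a feedback inhibitor of the cascade, by 0.12 (-0.34 to 0.57) and Dusp6, an ERK phosphatase, by -0.10 (-0.56 to 0.36). Ccnd1, cyclin D1, was the 1 called member. It read 6.73 and 7.13 in AECI control, 8.69 and 7.92 in AECI experimental, 6.70 and 6.37 in AECII control and 9.72 and 9.79 in AECII experimental cells, and rose by 2.30 (SE 0.35, adjusted p = 0.00917). The call was lost in 2 of the 8 fits without 1 array and in both fits on the male pattern. Among 18 FGF ligands and receptors 0 were called, with a median of -0.13.

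**Figure D2:**
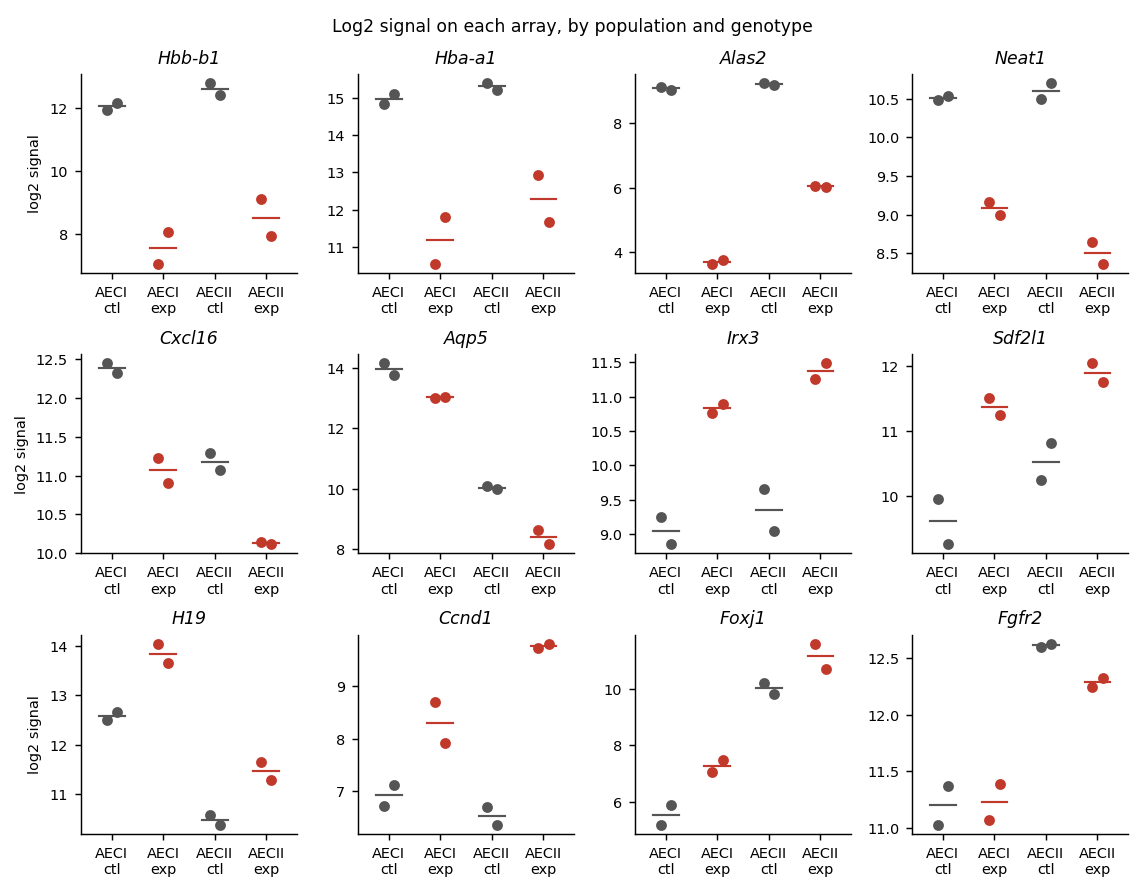
Log2 signal of 12 genes on each of the 8 arrays, by population and genotype (grey control, red experimental, 2 arrays a group, horizontal line at the group mean). Hbb-b1, Hba-a1 and Alas2 lie lower in both experimental groups, Irx3 and Sdf2l1 higher, and the Fgfr2 groups overlap in AECI.

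Markers of the AT1 cell were lower on balance, and those of the AT2 cell were near 0. Of 32 AT1 markers 4 lay above 0, 4 fell and 0 rose, against 54.8%, 0.457% and 0.317% of all genes, with a median of -0.24. Aqp5, a water channel, read 14.16 and 13.79 in AECI control, 13.01 and 13.06 in AECI experimental, 10.08 and 9.98 in AECII control and 8.61 and 8.15 in AECII experimental cells. Both populations were separated by genotype, with a fall of 1.29 (SE 0.16, adjusted p = 0.00236). It passed in all 8 fits without 1 array and with the male pattern as a covariate (adjusted p = 0.0302), but not without both male-pattern arrays (0.0644). Rtkn2 fell by 1.25 (SE 0.22, adjusted p = 0.0227), Sema3a, a secreted semaphorin, by 1.04 (SE 0.17, 0.0195) and Akap5, a kinase anchoring protein, by 0.69 (SE 0.14, 0.043). These 3 calls were lost in both fits on the male pattern, where the differences were -1.29, -0.97 and -0.72. They passed in 4, 3 and 1 of the 8 fits without 1 array. A second spot of Sema3a of similar brightness differed by -0.35, and a dimmer spot by 0.11. Ager, Hopx and Pdpn, the commonly used markers of AT1 cells, differed by -0.08, -0.08 and -0.30 and were not called. All 7 spots of Ager lay below 0, from -0.08 on the brightest to -0.73 on the dimmest.

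Of 32 AT2 markers 20 lay above 0, with a median of 0.06, against 54.8% and 0.05 over all genes, and 0 were called. Sftpc, which encodes surfactant protein C, differed by 0.04 (95% interval with the constant prior -0.33 to 0.41) from 15.45 to 15.88 on all arrays, at the upper end of the scanner range, which compresses differences. Sftpb differed by -0.02 (-0.49 to 0.46). The largest differences in the list were 0.43 for Dram1 and -0.41 for Hc, with adjusted p of 0.171 and 0.12.

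Ciliated, club and goblet, and mesenchymal markers lay higher on balance in experimental cells, while neuroendocrine and basal cell lists did not. Of 17 neuroendocrine markers 8 lay above 0, with a median of -0.13. Of 18 basal cell and keratin genes 10 lay above 0, with a median of 0.05. Of 32 ciliated cell markers 25 lay above 0, with a median of 0.57, against 54.8% and 0.05 over all genes. The 1 that rose, against 0.317% of all genes, was Foxj1, the regulator of motile cilia. In both fits on the male pattern the median was 0.40 and 0 members were called. The list mean was 5.65 and 5.64 in AECI control and 5.62 and 6.22 in AECI experimental cells, which overlapped, and 7.92 and 7.74 against 9.01 and 8.59 in AECII, which did not. Foxj1 read 5.19 and 5.88 in AECI control, 7.06 and 7.48 in AECI experimental, 10.21 and 9.83 in AECII control and 11.60 and 10.72 in AECII experimental cells. The rise of 1.44 (SE 0.26, adjusted p = 0.0238) was seen in both populations, but the call held in 2 of the 8 fits without 1 array and in neither fit on the male pattern. Ciliary genes outside the list also rose, chosen here after their values were seen: Cfap299, a cilia and flagella associated gene, by 1.91 (SE 0.37), Mns1, a protein of the axoneme, by 1.70 (SE 0.33) and Ift57, a carrier of intraflagellar transport, by 1.23 (SE 0.22). These 3 calls were lost in both fits on the male pattern, and the size for Cfap299 is approximate, since its AECI control values lay below the lower quartile of spots. Ift57 read 6.55 and 6.71 in AECI control, 7.86 and 7.73 in AECI experimental, 7.84 and 7.53 in AECII control and 9.02 and 8.94 in AECII experimental cells. Experimental arrays lay above control arrays by more than 1 log2 unit on average in both populations. Its promoter is shown for the letters GTTGCC, a half-site of RFX factors that act in ciliated cells, in capitals at 2 places. These letters on either strand occurred in 10.5% of all promoters and in 13 of 28 ciliated markers with a promoter.

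Ift57 (chr16:49699044-49699293, plus strand): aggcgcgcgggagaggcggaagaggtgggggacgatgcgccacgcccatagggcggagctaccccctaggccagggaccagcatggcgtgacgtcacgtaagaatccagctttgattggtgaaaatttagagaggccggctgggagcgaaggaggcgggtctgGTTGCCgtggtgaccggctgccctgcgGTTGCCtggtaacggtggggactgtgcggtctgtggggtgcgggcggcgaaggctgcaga

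Of 24 club and goblet cell markers 20 lay above 0, with a median of 0.40, and 2 rose, against 54.8%, 0.05 and 0.317% over all genes. Scgb3a1, a secretoglobin, rose by 1.10 (SE 0.20, adjusted p = 0.0248) and Cyp2f2, a cytochrome of club cells, by 0.87 (SE 0.17, 0.0287). Both calls were lost in both fits on the male pattern (0.126 and 0.144 for Scgb3a1, 0.143 and 0.169 for Cyp2f2), where the median of the list was 0.33. Scgb3a1 passed in 2 and Cyp2f2 in 0 of the 8 fits without 1 array. Scgb1a1, the club cell secretory protein, differed by 0.80 (adjusted p = 0.106). Of 32 mesenchymal markers 24 lay above 0, with a median of 0.45, and 1 rose, against 54.8%, 0.05 and 0.317% over all genes. It was Postn, a matrix protein, which rose by 1.41 (SE 0.30, adjusted p = 0.0494). In both fits on the male pattern the median of the list was 0.27 and 0 members were called (0.229 and 0.231 for Postn). Outside that list, chosen after their values were seen, Adam12, a metalloprotease, rose by 2.75 (SE 0.42, adjusted p = 0.00961) and Loxl1, which crosslinks elastin, by 1.88 (SE 0.38, 0.0397). A second spot of Adam12 of similar brightness differed by 0.66, and the Loxl1 call was lost in both fits on the male pattern. Col1a1 and Col3a1, the fibrillar collagens, differed by 0.67 and 0.86 and were not called. The mean of the mesenchymal list was 7.83 to 8.10 and 8.48 to 8.66 in AECI control and experimental cells, and 7.32 to 7.46 and 7.75 to 7.76 in AECII. The part of airway or mesenchymal cells in these results was not tested.

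Genes of the endoplasmic reticulum (ER) lay higher, and several rose. Of 26 unfolded protein response genes, which fold, modify and export secreted proteins, 22 lay above 0, with a median of 0.36. Of these 26, 4 rose, against 0.317% of all genes, while 54.8% of all genes lay above 0. In 14 of the 26 both experimental arrays lay above both controls in each population, against 6.94% of all genes, and in 0 of 26 below. Sdf2l1, an ER protein induced by misfolding, read 9.96 and 9.26 in AECI control, 11.50 and 11.24 in AECI experimental, 10.24 and 10.81 in AECII control and 12.04 and 11.76 in AECII experimental cells. The groups did not overlap in either population, with a rise of 1.57 (SE 0.18, adjusted p = 0.00123). It passed in every fit without 1 array and in both fits on the male pattern, as did Spcs3, a subunit of the signal peptidase, which lies outside the list, was chosen after its values were seen and rose by 0.95 (SE 0.13, 0.0036). Pdia4, a disulfide isomerase, rose by 0.91 (SE 0.16), Manf, a secreted ER stress protein, by 0.56 (SE 0.11) and Pdia3 by 0.51 (SE 0.11). The calls of Pdia4 and Pdia3 were lost in both fits on the male pattern and that of Manf without both male-pattern arrays (adjusted p = 0.051), which left 2 and 1 of the 4 called. Also outside the list and chosen after their values were seen, the translocon subunits Sec61b and Sec61a1 rose by 0.61 and 0.71 and the oligosaccharyltransferase subunit Ostc by 0.96, calls lost in both fits on the male pattern. Hspa5, the main ER chaperone, differed by 0.18 (adjusted p = 0.592). The ER stress element, the letters CCAAT and CCACG with 9 bases between them, on either strand, was present in 8 of 23 list promoters and in 0.122% of all promoters, and not in those of Sdf2l1, Pdia4 and Pdia3.

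**Figure D3:**
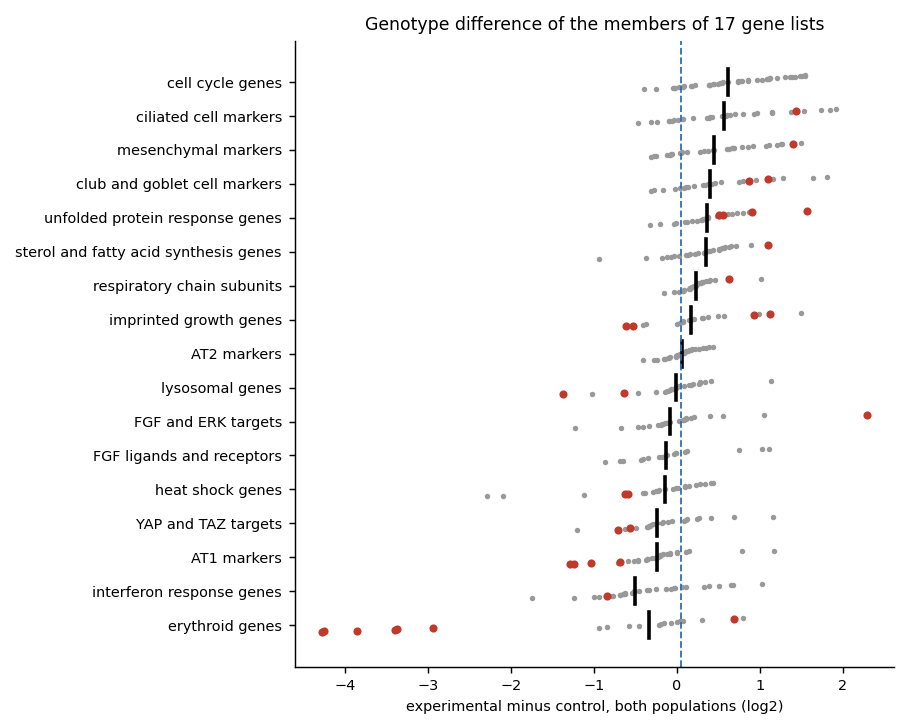
Genotype difference over both populations (horizontal axis, log2) of the measured members of 17 gene lists, with a black bar at each list's median and a dashed line at the median of all genes (0.05). Red points passed the threshold with a mean-variance trend. The red cell list holds 6 such points below -2.5.

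Hspa1a and Hspa1b were split by experimental replicate. Hspa1a, an inducible chaperone, read 13.51 and 13.75 in AECI control, 13.07 and 10.44 in AECI experimental, 13.93 and 13.87 in AECII control and 12.79 and 10.36 in AECII experimental cells. Replicate 2 of both experimental populations lay well below replicate 1. Hspa1b behaved alike, at 12.13 and 9.80 in AECI experimental and 12.44 and 9.56 in AECII experimental cells, so differences of -2.10 (adjusted p = 0.0733) and -2.29 (0.0615) did not pass. The genes are near-identical copies, and 247 of the 250 bases before their starts were the same, as shown with the heat shock element GAANNTTC in capitals, so their spots can share transcripts.

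Hspa1a (chr17:34972157-34972406, minus strand): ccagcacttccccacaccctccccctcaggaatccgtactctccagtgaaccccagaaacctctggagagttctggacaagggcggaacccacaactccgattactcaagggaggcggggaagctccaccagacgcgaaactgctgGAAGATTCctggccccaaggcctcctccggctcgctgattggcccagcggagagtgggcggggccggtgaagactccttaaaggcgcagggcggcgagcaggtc
Hspa1b (chr17:34959239-34959488, minus strand): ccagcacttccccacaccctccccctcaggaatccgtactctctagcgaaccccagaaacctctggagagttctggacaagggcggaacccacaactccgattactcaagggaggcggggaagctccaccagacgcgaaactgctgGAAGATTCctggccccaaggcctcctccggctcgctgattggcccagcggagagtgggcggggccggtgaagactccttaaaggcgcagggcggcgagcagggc

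That element occurred on either strand in 6.78% of all promoters and in 6 of 18 promoters of the heat shock list. The promoter of Hspb8 held 0 matches. Of the 23 members 2 fell, against 0.457% of all genes, the small heat shock proteins Cryab by 0.62 (SE 0.11, adjusted p = 0.0238) and Hspb8 by 0.58 (SE 0.12, 0.04), and the median was -0.14. Cryab read 14.31 and 14.20 in AECI control, 13.87 and 13.78 in AECI experimental, 10.84 and 10.86 in AECII control and 10.10 and 9.98 in AECII experimental cells. Both calls were lost in both fits on the male pattern. With each array centred, 6 members fell, as did 232 of all genes.

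Cell cycle genes lay higher without a call. Of 45 measured genes 40 lay above 0, against 54.8% of all genes, and the median was 0.62, the largest among the lists. However, 0 passed, and 11 had the order of experimental above control in both populations, against 6.94% of all genes. Ccna2, cyclin A2, differed by 1.49 (adjusted p = 0.0738), Cenpe, a kinetochore motor, by 1.51 (0.112) and Mki67, the proliferation marker, by 0.55 (0.272). The mean of the list was 6.59 and 6.93 in AECI control, 7.54 and 8.06 in AECI experimental, 6.68 and 6.67 in AECII control and 7.02 and 6.96 in AECII experimental cells. The experimental arrays of AECI spread by more than the distance between the AECII genotypes.

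**Figure D4:**
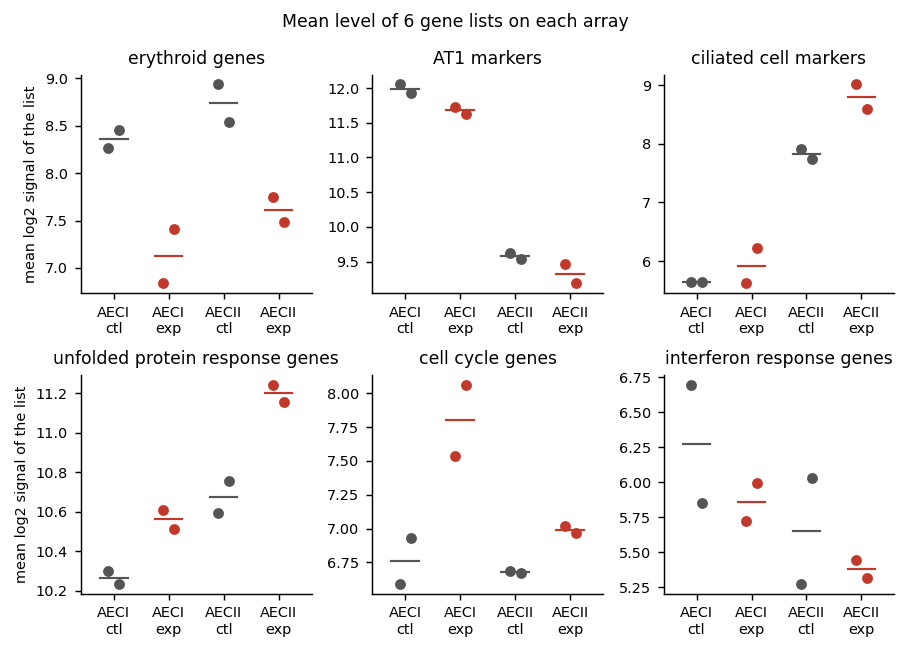
Mean log2 signal of 6 gene lists on each array (grey control, red experimental, 2 arrays a group, line at the group mean). The red cell list is lower on all 4 experimental arrays, and interferon genes are highest on the 2 controls of male pattern within their populations.

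Interferon response genes showed a direction that rested on the male-pattern arrays. Of 34 genes 8 lay above 0, against 54.8% of all genes, and the median was -0.51. Without those 2 arrays, however, 19 lay above 0 and the median was 0.07. The list mean was 6.70 and 5.85 in AECI control and 5.27 and 6.03 in AECII control cells, and the higher value of each pair was the male-pattern array. Parp9 fell by 0.84 (SE 0.15, adjusted p = 0.0245), and 1 of its 4 spots had that direction. The call was lost in both fits on the male pattern (0.126 and 0.165). Irf7, an interferon-induced transcription factor, differed by -1.25 (0.127).

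Single genes that passed in every fit without 1 array and in both on the male pattern included regulators and noncoding RNAs. Irx3, an Iroquois homeobox factor, read 9.25 and 8.85 in AECI control, 10.77 and 10.89 in AECI experimental, 9.66 and 9.04 in AECII control and 11.26 and 11.48 in AECII experimental cells. It rose by 1.90 (SE 0.17, adjusted p = 0.000134), while Irx5 differed by 0.36 (0.447) and Irx1 by -0.17 (0.497). Nfix, an NFI factor, rose by 0.79 (SE 0.15, 0.0248), but not in either fit on the male pattern. Its next spots by brightness differed by -0.03 and 0.33, and the dimmest, below the lower quartile of spots, by 0.64.

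Neat1, the noncoding RNA around which paraspeckles form, read 10.48 and 10.53 in AECI control, 9.16 and 9.004 in AECI experimental, 10.49 and 10.70 in AECII control and 8.65 and 8.37 in AECII experimental cells, and fell by 1.76 (SE 0.18, adjusted p = 0.000341). Cxcl16, a membrane-bound chemokine, fell by 1.18 (SE 0.13, 0.000691) and Pi4k2b, a phosphatidylinositol kinase, by 1.23 (SE 0.13, 0.000691). The other, dimmer spot of Pi4k2b differed by -0.14. The splicing factor Srsf11 fell by 0.85 (SE 0.11, 0.00208), and Dynlt1f, a dynein light chain with near-identical copies, rose by 1.15 (SE 0.11). H19, an imprinted noncoding RNA, read 12.50 and 12.66 in AECI control, 14.04 and 13.64 in AECI experimental, 10.57 and 10.38 in AECII control and 11.66 and 11.28 in AECII experimental cells. It rose by 1.13 (SE 0.13, adjusted p = 0.00116), and its neighbour Igf2, a growth factor, rose by 0.93 (SE 0.17, 0.0248), whereas the imprinted Meg3 and Rian fell by 0.53 (SE 0.10) and 0.62 (SE 0.12). The Igf2, Meg3 and Rian calls were lost in both fits on the male pattern.

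Metabolic and lysosomal lists and the targets of YAP and TAZ moved by small amounts. Over all genes 54.8% lay above 0, with a median of 0.05, and 0.317% rose and 0.457% fell. Of 31 respiratory chain subunits 29 lay above 0, with a median of 0.23, and Sdhc of complex II rose by 0.63 (SE 0.11, adjusted p = 0.0238). Of 29 genes of sterol and fatty acid synthesis 23 lay above 0, with a median of 0.36, and the desaturase Fads1 rose by 1.10 (SE 0.21, 0.0324). Of 26 lysosomal genes 12 lay above 0, and the hydrolases Asah1 and Gla fell by 1.37 and 0.63. Of 25 targets of YAP and TAZ 8 lay above 0, with a median of -0.24, and Ccn1 and F3 fell by 0.56 and 0.71. The calls of these 6 genes were lost in both fits on the male pattern. A test of whether the genotype difference itself differed between AECI and AECII gave 0 genes past the threshold with either prior (limma). With the constant prior 2095 genes had an unadjusted p under 0.05, with 1215 from chance alone, and the smallest adjusted p was 0.538. The absence of calls does not show that the differences were equal.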

How the data were processed

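Expression was measured on 8 single-colour arrays (Cy5, 2 µg of amplified cDNA per sample per the labels). Deposited values were log2 signals, already normalized between arrays by the authors. Limma, with no version, is named in the submitters' processing notes, and the background correction is not given in the sources used here. Precision is limited by the number of arrays. Of 62976 spots 43941 carried 1 gene symbol, updated through accessions and RefSeq symbols, which gave 24306 genes. The brightest spot by mean over 8 arrays was used.

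The additive model of genotype and population was fitted with limma 3.58.1 (R 4.3.3), with Benjamini-Hochberg adjustment over 24306 genes, a threshold of 0.05 and 5 residual degrees of freedom. The mean-variance trend, other normalizations, spot rules, filters, weights, blocks and left-out arrays were alternatives. Deviations of same-numbered arrays correlated at -0.103 to 0.04, and the numbers were not treated as pairs. Named genes were the 20 of smallest p with the same order in both populations in each direction, a set of markers and leading list members. Genes outside this rule are marked as chosen with their values known. Members and lists were chosen with earlier results of these data known. The fits were tested on simulated data. Lists were described by counts and medians.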

Additional observations from a re-analysis of the deposited data

How the results depend on the processing

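With the constant prior the count of called genes was 0 in every fit without 1 array (0 to 0), with the replicate block (0), with centring, a second quantile normalization, a robust prior, array weights, without population, in both fits on the male pattern, and with every spot tested alone. It was 1 with the mean of all spots, 1 with 4 group means, 53 among the 13650 genes above the array median, 188 with the trend, 3 with a random replicate block and 1 with the crossed random block. With the trend, 188 became 291 with centring, 95 with the mean of all spots, 433 with array weights, 324 with group means, 439 with the random replicate block, 512 with every spot alone, 37 with the male-pattern term, 30 without both male-pattern arrays and 42 to 163 without 1 array. The replicate block gave 137, as did the crossed block. The deviations of same-numbered AECI and AECII controls correlated at -0.103, so crossed numbers were tried. The blocks on crossed numbers, the fits on the male pattern and the trend with other choices were added after seeing the data.

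Of 136 named genes 129 kept their direction in every one of the 24 other fits that held them. Many had been named for small p on these arrays, and a gene named for its order could not turn without 1 array. The count is thus partly set by the choice of genes. The medians of 28 of 48 lists had another sign in some fit. The signs of 7 turned. Fgfr2 was 0.0473 with the mean of all spots. Sftpc was -0.0625 with centring and -0.00112 (without AECI experimental replicate 2) to 0.0695 without 1 array. Sftpb was 0.0863 with quantile normalization, 0.0127 with the mean of all spots and -0.144 to 0.0857 without 1 array. Ager was 0.00933 with quantile normalization. Etv5 was 0.0809 in both fits on the male pattern and -0.169 to 0.0453 (without AECII control replicate 2) without 1 array, and Dusp6 was -0.234 to 0.0134 (without AECII experimental replicate 1). Xist was -0.32 in both fits on the male pattern. The cause was not tested.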

Other observations

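Several further genes stood out, chosen after their values were seen. Xlr3b, Xlr4a and Xlr4b, X-linked genes of a family of near-identical copies, fell (differences of -3.15, -2.998 and -2.23, limma adjusted p with a mean-variance trend 0.0195, 0.0115 and 0.0418). Xlr4a read 8.50 and 7.01 in AECI control, 4.64 and 4.99 in AECI experimental, 6.92 and 7.81 in AECII control and 3.40 and 5.22 in AECII experimental cells, and the male-pattern array was the higher control in each population. All 3 calls were lost with the male pattern as a covariate. Nnt, a mitochondrial transhydrogenase that differs between common mouse strains, read 7.58 and 7.79 in AECI control, 8.84 and 8.48 in AECI experimental, 8.65 and 8.50 in AECII control and 9.49 and 9.75 in AECII experimental cells and rose by 1.01 (SE 0.19, 0.0272), a call lost in both fits on the male pattern. No source used here names the strains. The clock genes Per1 and Per2 fell by 1.23 (0.0457) and 0.79 (0.0466), calls lost in the same fits.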
